A study of Mus musculus with 34 samples.

Results

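The presynaptic vesicle release genes described here are 33 genes chosen by symbol for their known place in the nerve terminal, out of 23951 genes with an FPKM value in every library. They were chosen with earlier results of these data known, so shares of members set against all genes are descriptions. All 33 symbols were found, and each was tested in every hippocampal comparison. Expression was measured in the hippocampus of 20 male mice, 1 library per mouse: 4 control mice (Hdac1f/f), 5 Hdac1 cKO mice (Hdac1f/f; Nestin-Cre), 6 5XFAD mice (Hdac1f/f; 5XFAD) and 5 compound, or Hdac1 cKO; 5XFAD, mice (Hdac1f/f; Nestin-Cre; 5XFAD). The control and Hdac1 cKO mice were 13 to 14 months old, and the mice with the 5XFAD transgenes were 13 months old. All groups therefore carry the floxed Hdac1 alleles, which encode a histone deacetylase, and only those with Nestin-Cre lose them, in neurons and astrocytes and not in microglia. 5XFAD mice express their transgenes from the neuronal Thy1 promoter and develop amyloid plaques. GFAP+ nuclei of the cortex, analysed here from 3 control and 4 Hdac1 cKO mice, were measured with another library kit and are described apart. The design asks how loss of Hdac1, the 5XFAD transgenes and both together relate to gene expression in the aged hippocampus.

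At a nerve terminal, vesicles are filled with transmitter, held in reserve by synapsins, docked at the active zone and primed for fusion. Fusion is driven by the SNARE proteins, a vesicle protein (Vamp) joined to a pair of proteins of the plasma membrane (syntaxin and Snap25), and is triggered by calcium bound to synaptotagmins while complexins clamp and then assist the complex. Nsf and its attachment proteins take the spent complexes apart, and the vesicle membrane is retrieved for another round. In the hippocampus most of these terminals are glutamatergic, and bulk RNA reports the cell bodies that make the proteins.

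Promoter windows were read for the members, since several of them differed in the same direction in the comparisons below. RefSeq start sites of the GRCm38.p6 build were matched for 26 of 33 members, and the 250 bases before the start were searched on both strands for the GC box core GGGCGG and the cAMP response element TGACGTCA, which cannot overlap each other on either strand. The GC box core occurred in 19 of 26 members, or 73.1%, against 35.4% of all 27025 genes with a window of this length. The windows were also richer in G and C, with a median of 61.2% in the members and 52.4% in all genes. The cAMP response element occurred in 1 member, Syn1, or 3.85%, and in 1.77% of all genes. The windows shown are those of Rab3a, Cplx1 and Napb, 3 of the 4 members that were higher in every Hdac1 cKO mouse than in every control mouse (the fourth was Cplx2), of Slc17a7, which was higher in every mouse with 5XFAD than in every control mouse, and of Syn1. They run 5′ to 3′ on the strand of the gene and end at the base before the start, with the GC box core, or in Syn1 the cAMP response element, in capitals.
Slc17a7, chr7:45163671-45163920, plus strand: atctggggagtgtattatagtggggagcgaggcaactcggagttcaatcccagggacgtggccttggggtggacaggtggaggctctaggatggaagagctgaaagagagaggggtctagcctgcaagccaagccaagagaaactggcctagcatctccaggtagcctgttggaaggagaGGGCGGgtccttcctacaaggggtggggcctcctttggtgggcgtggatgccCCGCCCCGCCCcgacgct
Cplx1, chr5:108550028-108550277, minus strand: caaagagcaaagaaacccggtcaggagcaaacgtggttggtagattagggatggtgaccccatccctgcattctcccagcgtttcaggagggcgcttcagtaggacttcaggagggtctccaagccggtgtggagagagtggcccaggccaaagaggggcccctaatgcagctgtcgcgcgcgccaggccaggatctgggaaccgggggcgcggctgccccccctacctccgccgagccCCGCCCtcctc
Rab3a, chr8:70754453-70754702, plus strand, the first of its start sites: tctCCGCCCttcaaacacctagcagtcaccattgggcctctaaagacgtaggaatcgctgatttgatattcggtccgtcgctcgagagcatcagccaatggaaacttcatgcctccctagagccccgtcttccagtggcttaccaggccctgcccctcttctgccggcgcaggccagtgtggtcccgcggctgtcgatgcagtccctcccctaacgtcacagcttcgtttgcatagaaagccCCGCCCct
Napb, chr2:148732421-148732670, minus strand: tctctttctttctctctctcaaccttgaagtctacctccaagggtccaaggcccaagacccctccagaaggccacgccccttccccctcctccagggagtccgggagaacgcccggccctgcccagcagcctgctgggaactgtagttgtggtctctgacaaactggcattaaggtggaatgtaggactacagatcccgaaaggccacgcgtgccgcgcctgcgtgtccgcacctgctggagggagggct
Syn1, chrX:20920919-20921168, minus strand: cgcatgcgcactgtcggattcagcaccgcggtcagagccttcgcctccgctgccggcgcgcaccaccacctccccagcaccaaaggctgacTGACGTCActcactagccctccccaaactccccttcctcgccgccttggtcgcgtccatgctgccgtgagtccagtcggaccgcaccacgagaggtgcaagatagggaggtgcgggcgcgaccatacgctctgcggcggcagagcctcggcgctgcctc
The core was found 3 times in the window of Slc17a7, 2 times in the window of Rab3a shown and 0 times in that of its other start site, and 1 time in that of Cplx1. The windows of Napb and Cplx2 hold neither motif. These are matches of letters and were not measured as binding sites.

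No fragment counts are given, so the depth behind each value is unknown, and the relative depth estimated from the steps between low values ran from 0.471 to 1.5 times that of the median hippocampal library. Hdac1 itself was at 5.91 to 10.7 FPKM in control, 6.10 to 9.64 in 5XFAD, 2.36 to 3.03 in Hdac1 cKO and 1.15 to 2.52 in compound mice. In the hippocampus Hdac1 was lower in every mouse labelled with Nestin-Cre than in every mouse without it. The deleted exons are not given in the sources used here, and a 3′ fragment may lie outside them. Thy1, whose promoter drives the transgenes, was at 303 to 388 FPKM without and 1563 to 2357 FPKM with 5XFAD. The 8 neuron markers were above 0 in every library. Markers of choroid plexus, a tissue of the ventricle beside the hippocampus, differed between libraries: the summed level of 8 genes was 665, 18450, 21430 and 13740 FPKM in control mice, 104 to 1719 FPKM in Hdac1 cKO, 101 to 8344 FPKM in 5XFAD and 102 to 14480 FPKM in compound mice. Control mouse 1 thus stood apart from the other 3 control mice.

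In Hdac1 cKO mice 9 of 33 members were higher than in control mice at an unadjusted p under 0.05 (limma) and 0 were lower, against 4.91% of 14265 tested genes higher and 6.84% lower. Since earlier results were known when the members were chosen, this share is not an independent test of them. The 9 were the synapsins Syn1 and Syn2, the calcium sensor Syt5, the vesicle SNARE Vamp2, the vesicle GTPase Rab3a, the complexins Cplx1 and Cplx3, the SNARE disassembly cofactor Napb and the glutamate transporter Slc17a7. The differences were small: the median over the 33 members was +0.13 on the log2 scale, against -0.00068 over all genes tested, with 22 members positive and 11 negative, and it was 0.0844 without control mouse 3. Only Cplx3 also reached a fold of 1.5, the other condition for a differentially expressed gene (DEG), against 0.498% of genes higher by that rule. The count of 9 was 5 without Hdac1 cKO mouse 3, and that of 1 DEG was 0 without control mouse 1, 2 or 3 or Hdac1 cKO mouse 1 or 3.

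Compound mice had 7 members higher than control mice at an unadjusted p under 0.05 and 0 lower, against 5.34% and 5.15% of 14348 genes. Those were Syn1, the vesicle glycoprotein Sv2a, Cplx3, the plasma membrane SNARE Stx1a, Napb, the endocytic adaptor Snap91 and Slc17a7, with Cplx3 again the only DEG, against 2.22% of genes higher. The median over members was +0.04, against -0.0072 over all genes, and it ran from 0.0392 to 0.0865 with 1 mouse left out, over 1.5 times as high without control mouse 1, 3 or 4 or compound mouse 1 or 4. The count of 7 was 4 without control mouse 3 or compound mouse 5 and 3 without compound mouse 4, and the DEG was lost without control mouse 1, 2 or 3 or compound mouse 2 or 4. In 5XFAD mice 3 members, Sv2a, Cplx1 and Slc17a7, were higher than in control mice and 0 lower, against 5.25% and 5.46% of 14402 genes, with a median of +0.06 against -0.0088, which was 0.0427 without 5XFAD mouse 4. That count was 1 without control mouse 1 or 5XFAD mouse 2, 4 or 5, and it was 5 without 5XFAD mouse 1 and 6 without 5XFAD mouse 3. These 3 comparisons share the 4 control mice, and whether the mice with and without 5XFAD were sampled or sequenced together is not given in the sources used here.

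Between the mutant groups few members differed. Compound mice had 1 member, Snap25, higher than 5XFAD mice, against 3.91% of 14326 genes, and 0 lower, against 2.7%. Compared with Hdac1 cKO mice, they had 1 member higher, Syn3, and 2 lower, Syt5 and Cplx2, against 6.31% and 4.03% of 14195 genes. The first count was 0 without 5XFAD mouse 1 or compound mouse 3 or 5 and 3 without 5XFAD mouse 3. The second count, of 3 in both directions, was 0 without Hdac1 cKO mouse 5 or compound mouse 1 and 1 without Hdac1 cKO mouse 3 or compound mouse 4. No member had a limma p under 0.05 after Benjamini-Hochberg adjustment over all genes tested, in any of these 5 comparisons. By that rule 0.154% of genes were called in Hdac1 cKO against control, 0.708% in 5XFAD against control, 0.662% in compound against control, 0.00698% in compound against 5XFAD and 1.49% in compound against Hdac1 cKO mice. Every member difference below is therefore given at its unadjusted p, and the mice are the replicates throughout.

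**Figure D1:**
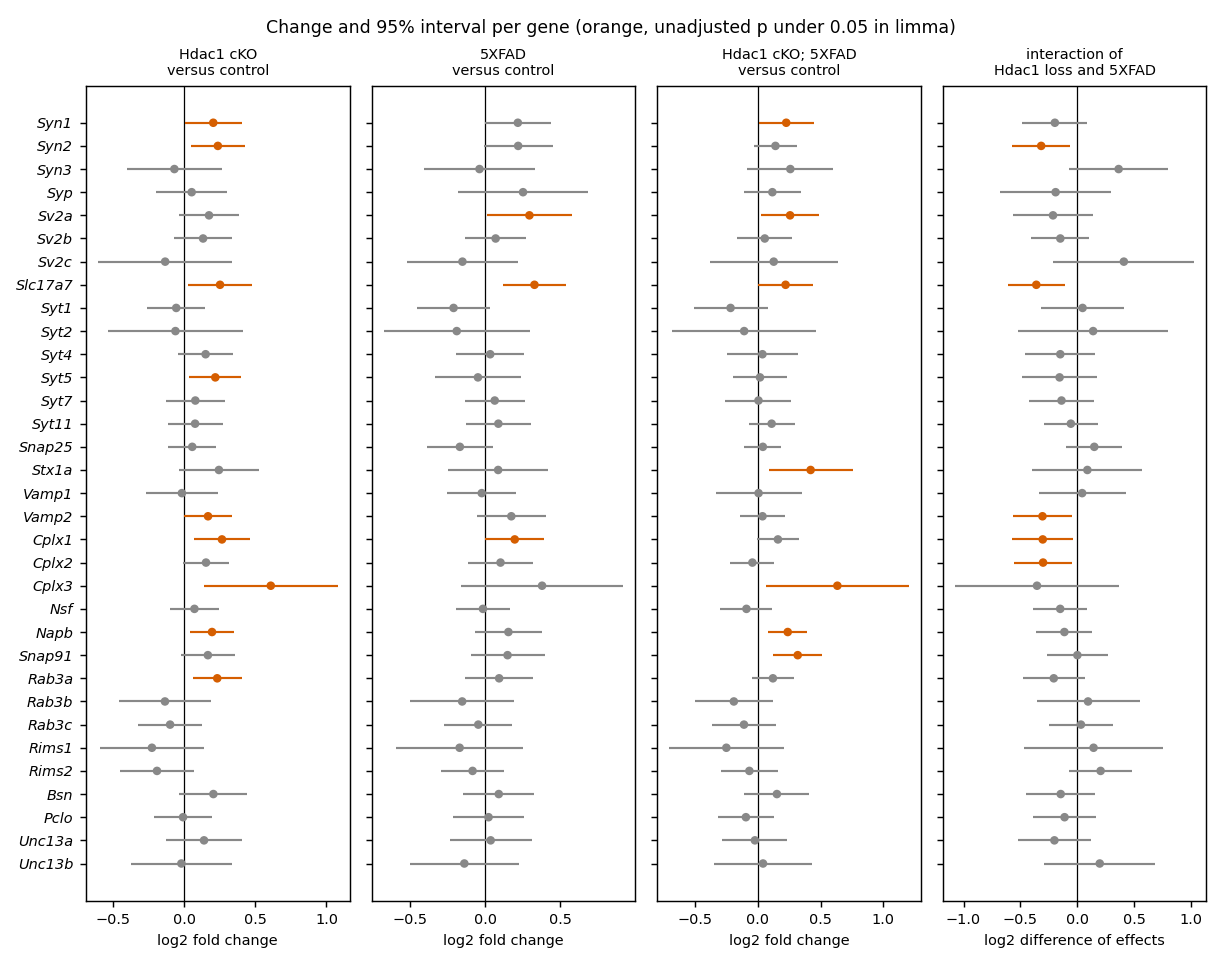
Log2 fold change of each of the 33 members with its 95% confidence interval in 3 comparisons against control mice (n = 4) and, at the right, the interaction of Hdac1 loss and 5XFAD over all 20 mice, with members in orange where the unadjusted p was under 0.05. A reader should see 9, 3 and 7 orange members, all to the right of 0, in the first 3 panels and 5 orange members, all to the left of 0, in the fourth.

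Taken mouse by mouse, the levels were set against the control mean of each member. The 5 Hdac1 cKO mice had 22 to 29 of 33 members above that mean and library medians of 0.09 to 0.14 on the log2 scale. The 4 control mice had 11 to 20 members above it and medians of -0.06 to 0.03. The medians of these groups did not overlap. But the control mice themselves set that mean, so their medians lie around it by construction. The gap restates the comparison of Hdac1 cKO with control mice and is no further support for it. Medians ran from -0.02 to 0.15 in 5XFAD mice and from 0.01 to 0.19 in compound mice, and both ranges overlapped those of the other groups.

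**Figure D2:**
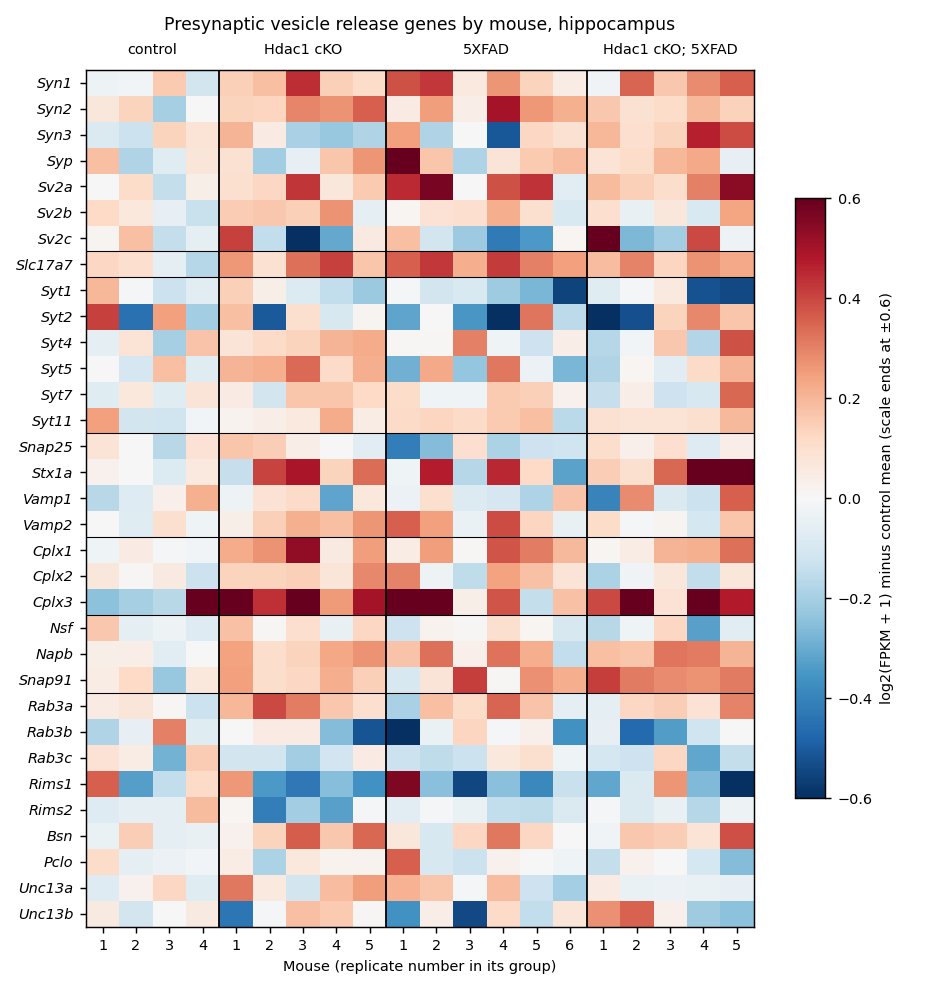
Each row is 1 of the 33 members and each column 1 of the 20 mice, in 4 groups divided by vertical lines; colour gives log2(FPKM + 1) minus the control mean of that member, red above and blue below, and the scale ends at 0.6 in both directions. The 5 Hdac1 cKO columns are red in 22 to 29 rows, while Rims1, Sv2c and Syt2 have both colours within every group.

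The synapsins coat vesicles and hold them in the reserve pool. Syn1 was at 61.6, 62.3, 70.5 and 58.4 FPKM in control mice, at 69.7, 71.7, 85.9, 69.8 and 68.2 FPKM in Hdac1 cKO mice, at 62.0, 80.5, 70.7, 76.9 and 81.2 FPKM in compound mice and, lowest, median and highest, at 65.1, 72.7 and 84.8 FPKM in 5XFAD mice. Hdac1 cKO mouse 3 was the highest of its group, and control mouse 3 lay within the range of every other group. The log2 fold change was 0.20 ± 0.09 (SE) in Hdac1 cKO (p = 0.0458, adjusted p = 0.412), 0.23 ± 0.10 in compound mice (p = 0.0433) and 0.22 in 5XFAD mice (p = 0.0527), and an exact permutation test of the mice gave p = 0.0556 for each of the first 2. Each of those calls passed in 3 of 9 fits that left 1 mouse out. Under 10 other alternatives of processing or model, the Hdac1 cKO call passed in 7 and the compound call in 6. On the opposite strand the exons of Araf overlap those of Syn1, and whether the counting used strand is not stated.

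Syn2 was at 164, 172, 136 and 157 FPKM in control mice, at 172, 171, 193, 189 and 201 FPKM in Hdac1 cKO mice, at 175, 167, 169, 179 and 173 FPKM in compound mice and at 161, 184 and 222 FPKM (lowest, median, highest) in 5XFAD mice. Only control mouse 2 reached the lowest Hdac1 cKO mice. In Hdac1 cKO mice this gave a log2 fold change of 0.24 ± 0.09 (p = 0.0181, adjusted p = 0.304, exact permutation p = 0.0317), and it passed in 8 of 9 fits with 1 mouse left out. Syn3, the third synapsin, was at 1.72, 1.63, 2.17 and 2.05 FPKM in control mice, at 2.33, 1.99, 1.52, 1.46 and 1.54 FPKM in Hdac1 cKO mice, at 1.02, 1.98 and 2.42 FPKM in 5XFAD mice and at 2.31, 2.09, 2.16, 2.98 and 2.79 FPKM in compound mice. Compound mice 4 and 5 were the highest of all 20 mice. Against Hdac1 cKO mice the log2 fold change was 0.33 ± 0.15 (limma p = 0.0453, adjusted p = 0.463, exact permutation p = 0.0397), which passed in 4 of 10 fits with 1 mouse left out and in 7 of the 10 other alternatives. The exons of Timp3 overlap Syn3 on the opposite strand.

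Sv2a, a glycoprotein of the vesicle membrane that regulates release, was at 40.3, 43.6, 36.5 and 41.4 FPKM in control mice, at 43.3, 44.1, 54.7, 42.3 and 45.2 FPKM in Hdac1 cKO mice, at 38.5, 53.9 and 60.5 FPKM in 5XFAD mice and at 46.3, 44.6, 43.5, 50.1 and 59.2 FPKM in compound mice. In 5XFAD mice 4 of 6 levels lay above every control mouse, and mice 3 and 6 lay among the controls. Against control, log2 fold changes were 0.29 ± 0.13 in 5XFAD (p = 0.0428, exact permutation p = 0.0905), 0.26 ± 0.11 in compound (p = 0.0329, exact permutation p = 0.0397) and 0.17 ± 0.10 in Hdac1 cKO mice (p = 0.0939). With 1 mouse left out in turn, the 5XFAD call held in 3 of 10 fits and the compound call in 5 of 9. Of the 10 other alternatives, the 5XFAD call passed in 9 and the compound call in 6. Syp, Sv2b and Sv2c, the other vesicle membrane proteins, passed in no hippocampal comparison.

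Slc17a7 encodes the transporter that loads glutamate into vesicles. Its level was 19.2, 18.8, 16.8 and 15.4 FPKM in control mice, 21.2, 18.7, 22.2, 23.6 and 19.7 FPKM in Hdac1 cKO mice, 20.5, 22.3 and 23.8 FPKM in 5XFAD mice (lowest, median, highest) and 19.99, 21.7, 19.2, 21.3 and 20.6 FPKM in compound mice. All 6 5XFAD mice and all 5 compound mice lay above all 4 control mice, and of the Hdac1 cKO mice only mouse 2 did not. It was the 1 member of 33 whose 5XFAD and control levels did not overlap, against 1.92% of genes higher without overlap. Its log2 fold change was 0.33 ± 0.10 in 5XFAD mice (p = 0.00489, adjusted p = 0.213, exact permutation p = 0.00476, the smallest that test can give). It was 0.25 ± 0.10 in Hdac1 cKO (p = 0.0313, exact permutation p = 0.0397) and 0.22 ± 0.10 in compound mice (p = 0.049, exact permutation p = 0.00794). The 5XFAD difference passed with each of the 10 mice left out in turn, while that of Hdac1 cKO passed in 4 of 9 such fits and that of compound mice in 3 of 9.

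**Figure D3:**
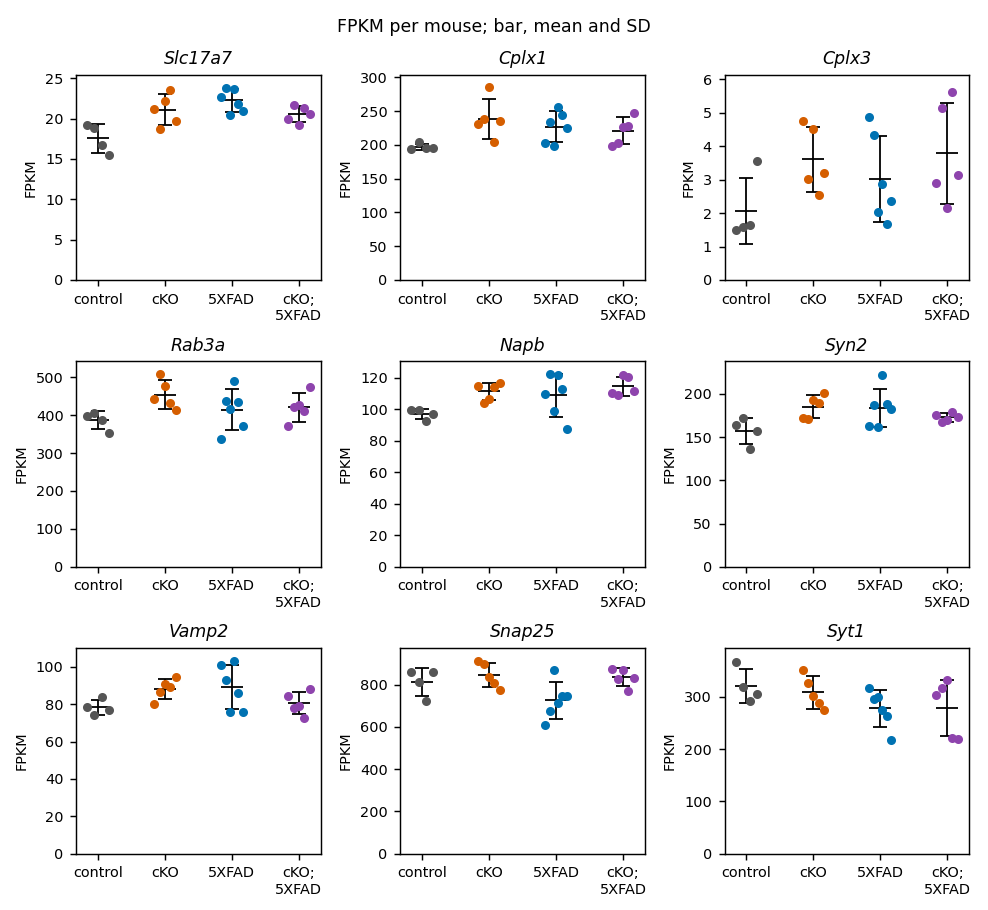
FPKM of 9 members in each of the 20 hippocampal mice, points coloured by group, with a bar at the mean and whiskers of 1 SD; every axis starts at 0. For Slc17a7 all 5XFAD and compound points lie above all control points, and for Cplx1, Rab3a and Napb all Hdac1 cKO points lie above all control points.

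Among the synaptotagmins, Syt1 is the fast calcium sensor of central synapses. It was at 366, 318, 292 and 305 FPKM in control mice, at 352, 326, 301, 288 and 274 FPKM in Hdac1 cKO mice, at 217, 285 and 316 FPKM in 5XFAD mice and at 303, 316, 332, 222 and 219 FPKM in compound mice. Compound mice 4 and 5 and 5XFAD mouse 6 were the lowest of all. No comparison passed, with a log2 fold change of -0.06 in Hdac1 cKO (95% confidence interval -0.26 to 0.15), -0.21 in 5XFAD (p = 0.083, exact permutation p = 0.0905) and -0.22 in compound mice (p = 0.132, exact permutation p = 0.254).

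Syt5, a related vesicle synaptotagmin, was at 65.8, 61.5, 74.9 and 62.7 FPKM in control mice, at 76.2, 77.1, 83.9, 71.6 and 76.9 FPKM in Hdac1 cKO mice, at 53.9, 60.3 and 82.5 FPKM in 5XFAD mice and at 58.2, 66.5, 62.9, 71.6 and 76.1 FPKM in compound mice. Only control mouse 3 overlapped the Hdac1 cKO mice, and the 5XFAD mice spread the most. Fitted log2 fold changes were 0.22 ± 0.08 for Hdac1 cKO against control (p = 0.0226, adjusted p = 0.323, exact permutation p = 0.0238) and -0.20 ± 0.09 for compound against Hdac1 cKO mice (p = 0.0356, adjusted p = 0.428). The first held in 6 of 9 fits with 1 mouse left out and the second in 3 of 10. Of the 10 other alternatives, the first passed in 9 and the second in 7. Syt2, Syt4, Syt7 and Syt11 passed in no hippocampal comparison.

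Among the SNARE proteins, Vamp2, the main vesicle SNARE of the forebrain, was at 78.5, 74.5, 83.8 and 76.9 FPKM in control mice, at 80.4, 86.7, 90.8, 89.0 and 94.4 FPKM in Hdac1 cKO mice, at 76.1, 89.5 and 103 FPKM in 5XFAD mice and at 84.5, 77.9, 79.3, 72.9 and 88.1 FPKM in compound mice. Hdac1 cKO mouse 1 was the only one of its group below the highest control mouse. The log2 fold change was 0.17 ± 0.08 in Hdac1 cKO mice (limma p = 0.0482, adjusted p = 0.419, exact permutation p = 0.0317), and it passed in 2 of 9 fits that left 1 mouse out. Of the 10 other alternatives it passed in 6.

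On the plasma membrane side, Stx1a was at 14.3, 14.0, 13.2 and 14.7 FPKM in control mice, at 12.7, 18.9, 20.1, 15.5 and 17.9 FPKM in Hdac1 cKO mice, at 11.0, 14.5 and 19.8 FPKM in 5XFAD mice and at 15.7, 15.1, 18.1, 24.3 and 24.4 FPKM in compound mice. All compound mice lay above all control mice, mice 4 and 5 by the most, and 5XFAD mice lay on both sides of the controls. In compound mice it gave a log2 fold change of 0.42 ± 0.15 (p = 0.018, adjusted p = 0.336, exact permutation p = 0.0397), and it passed with each mouse left out. Hdac1 cKO mice gave 0.24 ± 0.13 (p = 0.0805, exact permutation p = 0.111). Snap25 was at 858, 810, 722 and 861 FPKM in control mice, at 910, 898, 834, 808 and 775 FPKM in Hdac1 cKO mice, at 608, 728 and 869 FPKM in 5XFAD mice and at 871, 827, 870, 768 and 833 FPKM in compound mice. 5XFAD mouse 3 lay within the range of the compound mice, and the other 5 5XFAD mice lay below all of them. Compound against 5XFAD mice gave a log2 fold change of 0.21 ± 0.09 (limma p = 0.0358, adjusted p = 0.734, exact permutation p = 0.0346). That call passed in 4 of 11 fits with 1 mouse left out and in 6 of the 10 other alternatives. For Snap25, Hdac1 cKO against control mice gave 0.06 (95% confidence interval -0.11 to 0.23). Vamp1, the vesicle SNARE more abundant in hindbrain and spinal cord, passed in no hippocampal comparison.

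Complexins bind the assembled SNARE complex. Cplx1 was at 193, 204, 196 and 195 FPKM in control mice, at 230, 238, 285, 204.2 and 235 FPKM in Hdac1 cKO mice, at 198, 230 and 256 FPKM in 5XFAD mice and at 198, 203, 227, 228 and 247 FPKM in compound mice. Control mice were the tightest group, and the lowest Hdac1 cKO mouse, 4, lay just above the highest control mouse at 204.1 FPKM. Its difference from control, in log2, was 0.27 ± 0.09 in Hdac1 cKO (p = 0.0117, adjusted p = 0.265, exact permutation p = 0.0159), which passed with each mouse left out, 0.20 ± 0.09 in 5XFAD (p = 0.0481), which passed in 2 of 10 such fits, and 0.16 in compound mice (p = 0.0626).

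Cplx2, the other forebrain complexin, was at 188, 180, 186 and 164 FPKM in control mice, at 197, 197, 198, 189 and 219 FPKM in Hdac1 cKO mice, at 162, 196 and 221 FPKM in 5XFAD mice and at 157, 177, 188, 162 and 188 FPKM in compound mice. The Hdac1 cKO mice lay above all control mice and all compound mice. Against compound mice this was the 1 member that was lower without overlap, against 0.902% of genes, with a log2 fold change of -0.20 ± 0.08 for compound against Hdac1 cKO mice (p = 0.0216, adjusted p = 0.353, exact permutation p = 0.00794), and it passed in 7 of 10 fits with 1 mouse left out. For Hdac1 cKO against control mice it was 0.15 ± 0.07 (p = 0.0592, adjusted p = 0.448, exact permutation p = 0.0159).

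Cplx3, best known from retinal ribbon synapses, was measured at a low level. It was at 1.5, 1.58, 1.64 and 3.54 FPKM in control mice, at 4.76, 3.02, 4.51, 2.54 and 3.19 FPKM in Hdac1 cKO mice, at 1.68, 2.60 and 4.87 FPKM in 5XFAD mice and at 2.91, 5.14, 2.15, 5.62 and 3.13 FPKM in compound mice. Control mouse 4 stood apart from the other 3 control mice and lay within the range of every mutant group. The log2 fold change, on the log2(FPKM + 1) scale that understates differences of low genes, was 0.61 ± 0.22 in Hdac1 cKO (p = 0.0153, adjusted p = 0.288, exact permutation p = 0.0635) and 0.63 ± 0.26 in compound mice (p = 0.0323, adjusted p = 0.418). The first passed with each mouse left out and the second in 4 of 9 such fits.

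Napb encodes beta-SNAP, the brain form of the protein that recruits Nsf to spent SNARE complexes. It was at 99.3, 99.5, 92.3 and 96.7 FPKM in control mice, at 115, 104, 107, 114 and 117 FPKM in Hdac1 cKO mice, at 87.3, 111 and 122 FPKM in 5XFAD mice and at 110, 109, 121, 121 and 112 FPKM in compound mice. Every Hdac1 cKO and compound mouse lay above every control mouse, while the 5XFAD mice lay on both sides. The log2 fold change was 0.20 ± 0.07 in Hdac1 cKO (p = 0.0173, adjusted p = 0.302, exact permutation p = 0.0159) and 0.24 ± 0.07 in compound mice (p = 0.00633, adjusted p = 0.223, exact permutation p = 0.00794). With 1 mouse left out these passed in 8 of 9 and 9 of 9 fits. Nsf, the ATPase itself, passed in no comparison and gave 0.07 in Hdac1 cKO mice (95% confidence interval -0.10 to 0.24).

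Snap91 (AP180) gathers clathrin to retrieve vesicle membrane. It was at 60.6, 63.8, 49.9 and 61.4 FPKM in control mice, at 69.6, 63.2, 64.0, 68.4 and 64.8 FPKM in Hdac1 cKO mice, at 54.8, 65.2 and 78.5 FPKM in 5XFAD mice and at 78.5, 73.0, 71.5, 70.8 and 73.0 FPKM in compound mice. The compound mice lay above all control mice and all Hdac1 cKO mice. Against control the log2 fold change was 0.32 ± 0.09 in compound mice (p = 0.00404, adjusted p = 0.193, exact permutation p = 0.00794), which passed with each mouse left out, and 0.17 ± 0.09 in Hdac1 cKO mice (p = 0.0811).

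Rab3a, the small GTPase that brings vesicles to the active zone, was at 399, 406, 388 and 352 FPKM in control mice, at 443, 507, 478, 431 and 413 FPKM in Hdac1 cKO mice, at 337, 425 and 491 FPKM in 5XFAD mice and at 370, 421, 427, 410 and 474 FPKM in compound mice. All Hdac1 cKO mice lay above all control mice, and 5XFAD mice lay on both sides. This came to a log2 fold change of 0.23 ± 0.08 in Hdac1 cKO mice (p = 0.0121, adjusted p = 0.268, exact permutation p = 0.0159), it passed with each mouse left out, and it was 0.12 in compound mice (p = 0.152). The exons of Mpv17l2 overlap Rab3a on the opposite strand.

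Among the other active zone genes, Rab3b and Rab3c, the relatives of Rab3a, Rims1 and Rims2, which bind Rab3 and calcium channels, the scaffolds Bsn and Pclo and the priming factors Unc13a and Unc13b passed in no hippocampal comparison. Of the 9 Rab3 and active zone members 3 were positive and 6 negative in Hdac1 cKO mice, with a median of -0.02, and Rims1 was the lowest of all members at -0.23 (95% confidence interval -0.59 to 0.14). Bsn gave 0.21 (-0.03 to 0.44) and Unc13a 0.14 (-0.13 to 0.41), intervals that hold the 0.23 of Rab3a, and no difference between these genes was tested. Exons of a noncoding gene overlap Bsn, Rab3b, Syt4, Syt7 and Sv2b on the opposite strand. Over the 17 members not described mouse by mouse, log2 fold changes ran from -0.23 to 0.21 in Hdac1 cKO, from -0.19 to 0.25 in 5XFAD and from -0.25 to 0.15 in compound mice, with 8, 8 and 9 of them positive; that none of these passed follows from how they were set apart.

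In all, 4 members were higher without overlap in Hdac1 cKO than in control mice (Rab3a, Cplx1, Cplx2 and Napb), against 2.08% of genes, and 0 were lower, against 2.15%. In compound mice 4 were higher than control without overlap (Snap91, Stx1a, Napb and Slc17a7), against 2.75%, and 0 lower, against 1.52%. Slc17a7 was the 1 member higher without overlap in 5XFAD than in control mice, against 1.92% of genes, and 0 were lower, against 0.986%. Between compound and 5XFAD mice 0 members were higher without overlap, against 0.391%, and 0 lower, against 0.216%. Snap91 was the 1 member higher without overlap in compound than in Hdac1 cKO mice, against 2.44%.

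The interaction of Hdac1 loss and 5XFAD, the Hdac1 difference with 5XFAD minus the Hdac1 difference without it, was fitted over all 20 mice. It was below 0 at an unadjusted p under 0.05 for 5 members, against 4.1% of 14389 genes, and above 0 for 0, against 4.86%. Slc17a7 gave -0.36 ± 0.12 (limma adjusted p = 0.393), Syn2 -0.32 ± 0.12 (0.464), Vamp2 -0.31 ± 0.13 (0.499), Cplx1 -0.30 ± 0.13 (0.505) and Cplx2 -0.30 ± 0.12 (0.481). In each of these the Hdac1 cKO mean lay above the control mean, while the compound mean lay below the 5XFAD mean: for Slc17a7 the group means were 17.5 ± 1.76 (SD) FPKM in control, 21.1 ± 1.94 in Hdac1 cKO, 22.2 ± 1.41 in 5XFAD and 20.5 ± 0.996 in compound mice. All 3 complexins were negative. The median over members was -0.14, against 0.0067 over all genes, with 13 positive and 20 negative. Among the marker lists in the interaction, 7 of 8 hippocampal subfield markers were negative, with a median of -0.20 and 0 passing. All 8 choroid plexus markers were positive, with a median of 1.77 and 0 passing. Of 7 astrocyte markers 2 were above 0 at an unadjusted p under 0.05 (limma), and all 5 endothelium markers were negative, with 0 passing. The part of these markers in the member values was not tested. After adjustment 0 members and 0.0% of genes passed (limma).

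In the GFAP+ nuclei, which were sorted to enrich for astrocytes, 32 of 33 members were tested, since Syt2 was below the filter at a mean of 0.5 FPKM. Hdac1 itself was at 9.91 to 22.3 FPKM in control and 5.80 to 11.5 FPKM in Hdac1 cKO nuclei. These ranges overlapped, unlike those of the hippocampus. Syp, a vesicle membrane protein, was the 1 member higher in Hdac1 cKO at an unadjusted p under 0.05, against 2.44% of 15070 genes, and 0 were lower, against 2.26%. Its level was 23.4, 25.2 and 20.2 FPKM in control and 29.1, 30.1, 33.4 and 27.1 FPKM in Hdac1 cKO nuclei, which did not overlap, and the log2 fold change was 0.37 ± 0.15 (limma, adjusted p = 0.984). The call was lost without control sample 4 or Hdac1 cKO sample 3, and on the opposite strand the exons of Gm14703, a noncoding RNA, overlap those of Syp. Syp and Rims1 were higher without overlap, against 2.97% of genes, and Snap91 lower, against 2.75%. None of the 9 members that passed in the hippocampus of Hdac1 cKO mice passed here, though a difference between the tissues was not tested, and 0 members passed after adjustment, against 0.0133% of genes. The 8 neuron markers summed to 162 to 222 FPKM in control and 203 to 208 FPKM in Hdac1 cKO nuclei. Of 7 astrocyte markers 2 were higher, 2 of 7 choroid plexus markers were higher DEGs, and 1 of 5 endothelium markers was a lower DEG. Of 7 hippocampal subfield markers 1 was a lower DEG. Microglia markers had a median of -0.31, with 6 of 7 negative, and oligodendrocyte markers -0.26, with 5 of 6 negative. The part of these markers in the values of the neuronal genes was not tested.

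The pathway holds more genes, and 54 were listed, of which 52 were tested in each hippocampal comparison. In Hdac1 cKO mice 10 (19.2%) were higher at an unadjusted p under 0.05 and 4 (7.69%) lower, against 4.91% and 6.84% of all genes, with a median of +0.06. In 5XFAD mice 3 (5.77%) were higher and 2 (3.85%) lower, against 5.25% and 5.46%, and in compound mice 4 (7.69%) were higher and 4 lower, against 5.34% and 5.15%, so the 5XFAD shares lay near or below those of all genes. Sncg, which encodes gamma-synuclein of axon terminals, was at 20.6 to 48.3 FPKM in control, 10.4 to 14.9 FPKM in Hdac1 cKO, 10.3 to 19.4 FPKM in 5XFAD and 7.69 to 25.5 FPKM in compound mice. It was the DEG with the lowest fold of this list in each of these groups against control: -1.27 ± 0.21 (adjusted p = 0.0472), -1.06 ± 0.23 (adjusted p = 0.0673) and -1.19 ± 0.32 (adjusted p = 0.197).

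Syngr1, a vesicle membrane protein of the synaptogyrin family, was at 55.3 to 61.0 FPKM in control and 55.02 to 63.7 FPKM in Hdac1 cKO mice, at 67.5 to 123 FPKM in 5XFAD mice and at 113 to 159 FPKM in compound mice. Both groups with 5XFAD lay above all mice without it. Syngr1 rose in compound mice by 1.22 ± 0.11 against control (adjusted p = 0.00026) and by 1.21 ± 0.10 against Hdac1 cKO mice (adjusted p = 3.31e-05, limma), and 5XFAD against control gave 0.70 ± 0.16 (adjusted p = 0.0847). In the other hippocampal comparisons and the interaction the remaining DEGs of the list were Syt9 in Hdac1 cKO (-0.60, limma adjusted p = 0.408, with an unadjusted p under 0.05 in 3 of 9 fits that left 1 mouse out), Doc2a, a calcium sensor of spontaneous release, in compound mice (-0.69, adjusted p = 0.238), and Doc2b (-0.62, adjusted p = 0.441) and Sncg (1.15, adjusted p = 0.383) in the interaction. The Syt9 value ran from -0.79 to -0.28 with 1 mouse left out and from -1.20 to -0.54 under the other alternatives. Its highest control mouse was at 4.98 FPKM, against a control median of 1.68 FPKM. In the GFAP+ nuclei 48 of the 54 genes were tested, of which 3 were higher (6.25%) and 1 lower (2.08%) at an unadjusted p under 0.05, against the 2.44% and 2.26% of all genes given above. The DEGs there were Sncg, at 7.15 to 7.87 FPKM in control and 1.10 to 2.40 FPKM in Hdac1 cKO nuclei (-1.65 ± 0.23, limma adjusted p = 0.109), and Unc13c, a priming factor related to Unc13a, at 3.54 to 5.085 and 5.35 to 9.396 FPKM (0.77 ± 0.23, limma adjusted p = 0.984). Neither overlapped between the groups, and both passed with each of the 7 samples left out.

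Other markers moved beside the members. In Hdac1 cKO mice all 8 choroid plexus markers were lower DEGs, with a median of -2.80, although control mouse 1, at 665 FPKM in sum, lay below the highest Hdac1 cKO mouse. Of the 8 hippocampal subfield markers 2 were higher at an unadjusted p under 0.05, 7 were positive and the median was 0.19, and their sum was 239 to 288 FPKM in control and 269 to 318 FPKM in Hdac1 cKO mice. Of the 8 neuron markers 1 was higher, with a median of 0.03, and their sum was 1196 to 1308 FPKM in control and 1228 to 1332 FPKM in Hdac1 cKO mice. The 9 thalamus markers had a median of -0.41 with 2 lower DEGs, and their sum was 49.9 to 145 FPKM in control and 45.1 to 54.1 FPKM in Hdac1 cKO mice. Control mouse 4 had the 145 FPKM, and the sums of control mice 1 and 2 fell among those of Hdac1 cKO mice. Of 8 interneuron markers 2 were higher, with a median of -0.04, and of 7 microglia markers tested 1 was higher and 6 were positive, with a median of 0.19. Of 7 astrocyte markers 1 was higher, with a median of 0.09, and of 6 oligodendrocyte markers 1 was lower, with a median of -0.06. The oligodendrocyte sum was 1176 to 1248 FPKM in control and 1008 to 1194 FPKM in Hdac1 cKO mice. With 5XFAD, 7 of 8 microglia markers were higher, and their sum was 86.2 to 125 FPKM in control and 296 to 405 FPKM in 5XFAD mice, while 4 of 8 interneuron markers were lower, with a median of -0.23. Of 7 astrocyte markers only 1, Gfap, was a higher DEG (1.90, limma adjusted p = 1.86e-06). The median of the 7 was 0.09, with 5 positive and 2 negative. Their sum, which includes Gfap, was 932 to 1047 FPKM in control and 1049 to 1211 FPKM in 5XFAD mice. The 8 choroid plexus markers were all negative, with a median of -1.55 and 0 passing. In compound against control mice 8 of 8 microglia markers (352 to 688 FPKM in sum) and 3 of 7 astrocyte markers were higher, 5 of 8 choroid plexus markers were lower DEGs, with a median of -2.50, and 2 of 8 interneuron markers were lower. All 9 thalamus markers were negative there, with a median of -0.26 and 1 lower DEG. Of 5 endothelium markers 4 were negative, with a median of -0.33 and 1 lower DEG. Of the 8 hippocampal subfield markers 1 was lower, with a median of 0.03, and of the 8 neuron markers 1 was higher, with a median of 0.03. In compound against Hdac1 cKO mice, where Syt5 and Cplx2 were lower, 3 of 8 hippocampal subfield markers were lower and 7 negative, with a median of -0.19, while 7 of 8 microglia and 3 of 7 astrocyte markers were higher. In compound against 5XFAD mice, where Snap25 was higher, 3 of 8 microglia and 2 of 7 astrocyte markers were higher and 3 of 5 endothelium markers lower. There all 8 choroid plexus markers were negative, with a median of -1.07, and 8 of 9 thalamus markers were negative, with a median of -0.32, with 0 passing in each list. With libraries brought to an equal sum without the choroid plexus markers, an alternative chosen after seeing the data, 10 of 33 members were higher in Hdac1 cKO than in control mice, against 6.43% of genes by the same scaling, 5 in 5XFAD mice, against 7.12%, and 4 in compound mice, against 4.6%. The part of the other marker lists in the member differences was not tested, and in bulk tissue fewer cells of a type and less RNA per cell cannot be told apart.

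**Figure D4:**
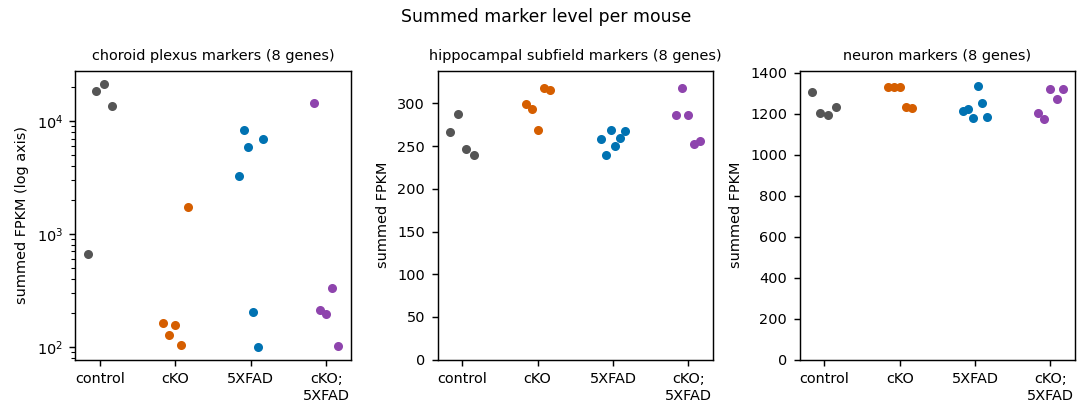
Summed FPKM of the choroid plexus markers (log axis), the hippocampal subfield markers and the neuron markers (axes from 0), 8 genes each, in each of the 20 hippocampal mice by group. Choroid plexus sums run from 101 to 21430 FPKM, with control mouse 1 at 665 FPKM, while neuron marker sums lie between 1175 and 1336 FPKM in all groups.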

How the data were processed

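Hippocampal RNA was sequenced by 3′ digital gene expression and RNA of GFAP+ nuclei with SMART-Seq v4. Alignment was with Tophat2, and the authors deposited FPKM values (fragments scaled to transcript length and to the mapped total), computed per the submitters' notes with Cufflinks 2.0.0 on the UCSC mm9 annotation. FPKM divides by transcript length although 3′ libraries read 1 end of a transcript, so levels of different genes are not on the same scale. The summed marker levels add such values and are weighted to the genes with the highest FPKM. Of 34 samples listed, 27 were used, grouped by their labels. The ChIP-seq samples and GFAP+ control sample 2 were not analysed here.

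Genes that averaged 0.5 FPKM or more over the compared samples were tested as log2(FPKM + 1) with limma 3.58.1 (trend and robust moderation) in R 4.3.3, with only the compared groups in each fit and all 20 hippocampal mice in the interaction. P-values were adjusted by Benjamini-Hochberg over all genes tested. A DEG had a fold of 1.5 or more with p under 0.05 before adjustment, following the thresholds of the methods, which name no test. Single members were also compared with two-sided exact permutation tests in Python 3.11.15 (scipy 1.17.1). Each fit was tested on simulated data. No alternative except the equal sum without choroid plexus markers was added after seeing the values. The members, pathway genes and markers were chosen with earlier results of these data known. Described mouse by mouse were members with an unadjusted p under 0.05 in a hippocampal comparison, and Syn1, Snap25, Syt1, Stx1a, Vamp2 and Slc17a7 in any case; pathway genes were named where they were DEGs.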

Additional observations from a re-analysis of the deposited data

Results flagged for a closer look

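In the 5 groups of 4 to 6 samples, 15 of 165 levels of a member in a group had a library far from the others, a gap that chance gives in about 1 in 20 groups. Hdac1 cKO mice held Syn1 at 85.9 FPKM and Sv2a at 54.7 FPKM, both in mouse 3, Syt11 at 205 FPKM in mouse 4, Rims1 at 26.0 FPKM in mouse 1 and, as a low value, Pclo at 15.8 FPKM in mouse 2. 5XFAD mouse 1 was high in Syp (68.9 FPKM), Rims1 (32.2 FPKM) and Pclo (23.5 FPKM), and 5XFAD mouse 6 was low in Syt11 (157 FPKM). Among control mice Rims2 reached 15.1 FPKM and Cplx3 3.54 FPKM in mouse 4, and Bsn 10.2 FPKM in mouse 2. Compound mice held Syt11 at 201 FPKM in mouse 5 and Unc13a at 5.52 FPKM in mouse 1, and GFAP+ Hdac1 cKO sample 1 held Sv2a at 12.5 FPKM, the lowest of its group.

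The interaction of Hdac1 loss and 5XFAD had an unadjusted p under 0.05 (limma) for Slc17a7 (-0.36 on the log2 scale), Syn2 (-0.32), Vamp2 (-0.31), Cplx1 (-0.30) and Cplx2 (-0.30). By that rule 4.1% of 14389 genes were below 0. After adjustment 0 of these members passed, so a different Hdac1 effect with 5XFAD was not established.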

How the results depend on the processing

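Over 23 genes, which were Syt1 and the members and pathway genes with a named call, no called difference changed its sign under the alternatives run. Members with an unadjusted p under 0.05 numbered 6 to 10 in Hdac1 cKO against control mice under the alternatives other than leaving a mouse out. The count of 3 in 5XFAD against control mice became 5 with quantile normalization, 1 with limma without the trend and robust options, 5 with all 4 hippocampal groups in one fit and 5 with an equal sum without choroid plexus markers, which also moved the median from 0.0641 to 0.1272. In compound against control mice the count of 7 became 4 with the equal sum, and the median of 0.0403 ran from 0.026 (equal sum) to 0.0577. In compound against 5XFAD mice the count of 1 became 0 with quantile normalization, 0 without trend and robust options, 3 with all 4 groups in one fit and 0 with the equal sum, which moved the median from 0.0017 to -0.0829, and it moved that of the interaction from -0.1386 to -0.2518. The causes were not tested. With 1 mouse left out the counts ran from 5 to 10 (Hdac1 cKO against control), 1 to 6 (5XFAD against control), 3 to 8 (compound against control), 0 to 3 (compound against 5XFAD), 0 to 3 (compound against Hdac1 cKO), 0 to 1 (GFAP+ nuclei) and 4 to 6 (interaction), DEGs from 0 to 1 in Hdac1 cKO and in compound against control, and the GFAP+ median from -0.0703 to 0.0755, the highest without control sample 3 and the lowest without Hdac1 cKO sample 3. Replicate numbers mark different animals and did not pair the mice (correlation of deviations -0.113 to 0.0938): with the replicate block the counts were 6 (Hdac1 cKO against control), 4 (compound against control), 0 (compound against 5XFAD), 1 (compound against Hdac1 cKO) and 3 (interaction). Without fragment counts no interval or detection limit for a single library could be given, and low members such as Cplx3, Syn3 and Syt2 are the least certain. The p-values measure the spread between the mice of each group.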
